A study of Mus musculus with 28 samples.

Results

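The RNAs described here are the Y RNAs Rny1 and Rny3 and the vault RNA Vaultrc5 in the circulation of mice. They were taken from a table of 80668 RNAs by their symbols, 1 transcript each, and all 3 were found. The table places them in its class misc_RNA, which holds 565 symbols, and 77425 RNAs remained in all after rows of 1 symbol were summed.

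The samples came from 14 female mice of the inbred wildtype strain C57BL/6N, of which 3 were aged 2 months, 4 were 6 months, 3 were 8 months, 2 were 12 months and 2 were 18 months old. Plasma of each mouse was freed of cells and debris and then split by ultracentrifugation into a pellet enriched in extracellular vesicles (EVs) and a fluid depleted of EVs, referred to as plasma, so that both fractions of every mouse gave a small RNA library and no animals were pooled. A pellet of this kind can hold other particles than vesicles, and the tables, which list RNAs only, do not show the protein markers of vesicles. The plasma libraries of replicates 2 and 3 at 2 months carry 1 joint code in the labels, so their pairing with the EV libraries rests on the replicate number.

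Y RNAs are short transcripts of RNA polymerase III that fold back into a long stem with an internal loop. They are bound by the Ro60 protein at the stem and by La at the 3′ end, take part in RNA quality control and in the start of DNA replication, and are known as a common source of fragments in blood. Vault RNAs, also made by RNA polymerase III, are bound to the vault, a large barrel of major vault protein in the cytoplasm, and have been linked to autophagy and to small regulatory fragments.

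The Y RNA genes lay side by side in the mouse genome (GRCm38, GENCODE M21). Rny3 was annotated at chr6:47781624-47781725 on the plus strand with 102 bases, and Rny1 at chr6:47788069-47788180 on the minus strand with 112 bases. The space between the genes was 6343 bases, neither overlapped another annotated gene, and the nearest protein-coding gene of both was Pdia4, at 7961 bases from Rny1 and 14416 bases from Rny3. The sequences are shown because the pair is alike in sequence and fold and yet stood apart between the fractions. They are written 5′ to 3′ as DNA letters of the GENCODE transcripts, with capitals for the 3 stretches of at least 7 bases that were identical in an alignment of both.
Rny1: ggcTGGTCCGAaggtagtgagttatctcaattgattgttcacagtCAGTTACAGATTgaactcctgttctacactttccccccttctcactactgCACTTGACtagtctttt
Rny3: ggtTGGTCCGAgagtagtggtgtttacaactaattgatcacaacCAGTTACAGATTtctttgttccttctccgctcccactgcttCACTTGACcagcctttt
In this alignment 80 of 112 columns held the same base (71.4%). The first and the last of the shared stretches lie near the ends, which pair to form the stem that Ro60 is known to bind. In the predicted fold of lowest free energy, -34.3 kcal/mol for Rny1 and -27.1 kcal/mol for Rny3, 8 base pairs joined the first 8 bases with bases 101 to 108 of Rny1 and with bases 91 to 98 of Rny3. Both end in 4 T, the letters at which RNA polymerase III stops.

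Sequence relatives bear on how surely the reads belong to these genes. Stretches of 18 bases of Rny1 recurred in 8 other misc_RNAs, which held 3148 counts over all libraries beside 13711 for Rny1, and Gm26168 had the most of them, with 980. The summed counts of these 8 relatives were between 0.137 and 0.344 times the count of Rny1 in every library, with a median of 0.234 in EVs and 0.223 in plasma. No other misc_RNA shared such a stretch with Rny3, and 1 shared it with Vaultrc5, Gm25403 with 231 counts beside 4905. How the tables treat a read that matches several RNAs was not tested, and the 7SL genes Rn7s1 and Rn7s2 had identical counts in all 28 libraries. The table gives a count per RNA and not the position of reads, so fragments and whole molecules cannot be told apart.

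The libraries held 928651 to 52753818 counts, and 1 of them, plasma of replicate 1 at 6 months, held fewer than 2000000. The 3 RNAs together gave 423 to 1635 counts in EV libraries (median 752.5) and 43 to 1491 in plasma libraries (median 433). The smallest value was 3 counts of Rny3 in plasma of replicate 1 at 12 months, with an exact 95% Poisson interval of 0.619 to 8.77 that covers counting error only. Ribosomal RNA took 20.7% to 61.4% of the counts in EVs and 4.25% to 17.4% in plasma, and transfer RNA 11.3% to 51.4% in EVs and 43.8% to 78.8% in plasma. These shares move with the fraction, their part in the results was not tested, and comparisons of levels are therefore given with ratios inside a library as well.

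The authors' table in RPM (reads per 1e6) divides each count by 1 number per library and scales it up. Divided also by length, Rny1 was the highest of the 3 RNAs in both fractions, followed by Vaultrc5 and Rny3. The means in RPM alone had the same order. As fragments and whole molecules cannot be told apart, a level per length is not a number of molecules. In EVs the levels were 57.2 ± 21.3 RPM per 100 bases for Rny1, 22.1 ± 8.99 for Vaultrc5 and 13.1 ± 5.12 for Rny3 (mean ± SD over 14 mice). In plasma they were 58.9 ± 28.2 for Rny1, 8.56 ± 4.00 for Vaultrc5 and 5.34 ± 3.46 for Rny3. Rny1 was above both others in all 14 libraries of each fraction, per length. The order of Vaultrc5 and Rny3 was less firm, as Rny3 was the higher of the pair in 1 EV library and in 2 plasma libraries, and the ranges of both overlapped in each fraction. The make-up of the 3 RNAs also differed between fractions. Of their summed counts, Rny1 made 57.7 ± 9.0% in EVs and 77.9 ± 5.95% in plasma, Vaultrc5 made 29.0 ± 6.69% and 15.1 ± 5.26%, and Rny3 made 13.4 ± 5.97% and 6.94 ± 3.89%.

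The comparison of EVs with plasma asks in which fraction each RNA takes the larger part of a library. Each library is scaled to its own counts, so which fraction holds more molecules of an RNA cannot be told. Rny3 and Vaultrc5 were higher in EVs, each by a log2 difference near 1.8, while Rny1 showed no difference past the threshold. Over all RNAs of the table, 3461 of 19919 tested passed an adjusted p of 0.05 in this comparison (17.4%), and 10.2% passed it with the higher level in EVs. Of the 3 members, 2 passed, both with the higher level in EVs. In such bulk samples, fewer particles that carry an RNA and less RNA in each cannot be told apart.

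Vaultrc5, the vault RNA, lies on chromosome 18 of GRCm38 (36801866 to 36802008, plus strand, 143 bases), overlaps no other gene and is 2200 bases from Zmat2, the nearest protein-coding gene. Its level in EVs ran from 16.9 RPM over a median of 27.7 to 58.8, and in plasma from 6.31 over a median of 9.92 to 21.5. The EV library was the higher one in 14 of 14 mice, by a median of 2.56-fold, and 10 of the 14 EV libraries lay above the highest plasma library. The smallest step was that of replicate 1 at 2 months, from 20.0 RPM in plasma to 25.5 in EVs. The largest was that of replicate 1 at 12 months, from 7.97 to 44.5. In the count model, with the libraries scaled by TMM over all RNAs and age as a covariate, the log2 difference was 1.80 with a standard error of 0.26 (edgeR's quasi-likelihood test, Benjamini-Hochberg adjusted p = 8.08e-06), place 221 of 19919 by p. The count model did not use the pairing of fractions by mouse, and a fit with a block by mouse is given at the end. Among the 197 misc_RNAs tested, 6 had a larger difference in favour of EVs.

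Rny3, the shorter Y RNA, had EV levels from 5.86 RPM over a median of 13.1 to 23.0 and plasma levels from 1.97 over a median of 4.36 to 13.7. It was higher in the EV library of 11 of 14 mice, by a median of 2.51-fold. The exceptions were replicate 1 at 2 months (12.4 RPM in EVs, 13.7 in plasma), replicate 3 at 6 months (5.86 and 6.25) and replicate 2 at 12 months (6.35 and 7.12), in which the levels nearly met. The step was over 9-fold in 3 mice. These were replicates 2 and 4 at 6 months, with 23.0 against 2.12 RPM and 18.2 against 1.97 RPM, and replicate 1 at 12 months, with 20.4 against 1.99 RPM. The plasma values of these mice rest on 12, 9 and 3 counts. The fitted log2 difference was 1.81 with a standard error of 0.30 (edgeR, adjusted p = 7.01e-05), place 425 of 19919.

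Rny1, the longer Y RNA and the most abundant member, ran from 27.1 RPM over a median of 69.0 to 112 in EVs and from 28.8 over a median of 61.9 to 151 in plasma. It was higher in the EV library of 6 of 14 mice, no EV library lay above the highest plasma library, and the log2 ratio within mice was -0.02 ± 0.57 (mean ± SD). The count model gave a log2 difference of 0.48 with a standard error of 0.27 (edgeR, adjusted p = 0.254). This value took its sign from the scaling. With the libraries scaled by the authors' RPM number it was 0.0029, by the total count -0.03 and by TMM over miRNAs alone -0.21, none of them past the threshold.

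**Figure D1:**
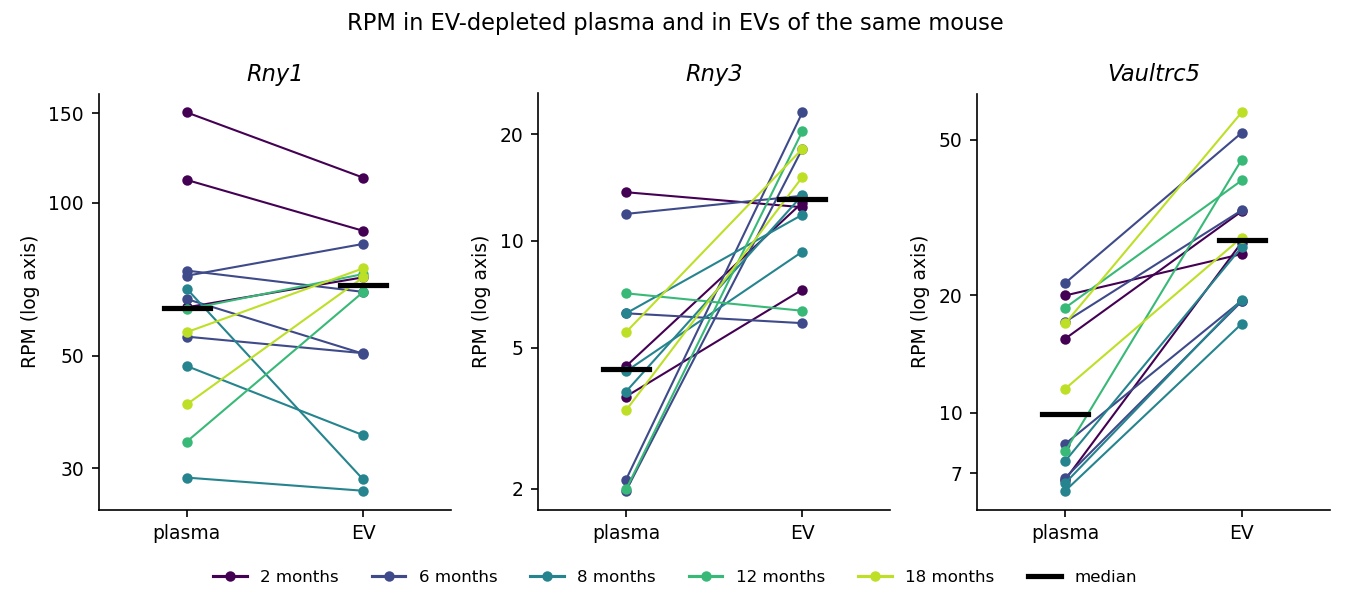
Level of each RNA in RPM on a log axis, in plasma and in EVs; each line joins both libraries of 1 mouse, the colour gives its age and the black bar is the median over 14 mice. Vaultrc5 rises from plasma to EVs in 14 of 14 mice and Rny3 in 11, while the lines of Rny1 go both ways, upward in 6.

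The scaling moved the median of all RNAs by about as much as it moved Rny1. The median log2 difference over all RNAs was -0.02 with TMM, -0.45 with the RPM number, -0.51 with the total count and -0.66 with TMM over miRNAs alone, and the RNAs past the threshold changed from 2039 higher in EVs and 1422 higher in plasma with TMM to 906 and 3919 with the RPM number. Relative to this median, Rny1 lay 0.41 to 0.50 higher over 6 scalings, Rny3 1.79 to 1.99 and Vaultrc5 1.79 to 1.83. Rny3 and Vaultrc5 passed the threshold in each of the 6, with log2 differences of 1.33 to 1.82 and 1.18 to 1.82, and the highest adjusted p was 0.00552 for Rny3 and 0.00194 for Vaultrc5, both with the total count.

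**Figure D2:**
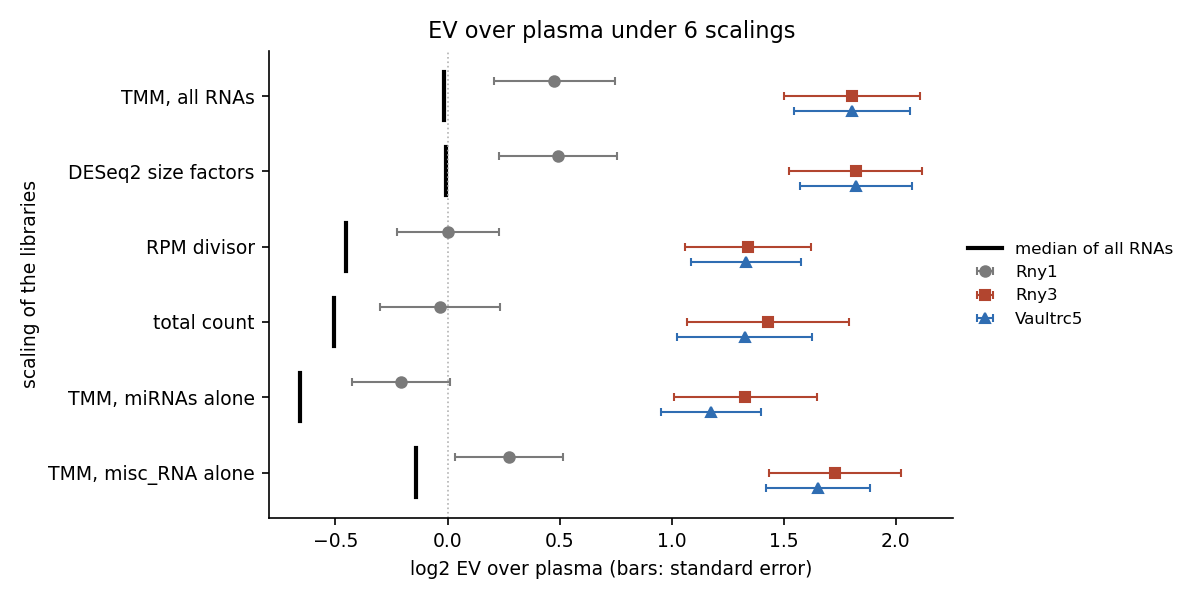
Fitted log2 difference between EVs and plasma for the 3 RNAs under 6 ways of scaling the libraries, with bars of 1 standard error, and the median of all RNAs tested as a black line. Rny3 and Vaultrc5 stay between 1.18 and 1.82, and Rny1 moves with the median, between -0.21 and 0.49.

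A share within a class does not depend on how libraries are scaled. Vaultrc5 made 0.464 ± 0.217% of the misc_RNA counts in EVs and 0.178 ± 0.111% in plasma (mean ± SD over 14 mice), Rny3 made 0.211 ± 0.126% and 0.0713 ± 0.0396%, and Rny1 made 0.944 ± 0.419% and 0.930 ± 0.472%. The share was higher in EVs in 14 of 14 mice for Vaultrc5, in 12 for Rny3 and in 6 for Rny1. The mean log2 ratio of shares was 1.47 for Vaultrc5 (exact test over all sign changes within mice, two-sided, p = 0.000122, the smallest this test can give, and 0.00301 adjusted over 197 misc_RNAs). It was 1.49 for Rny3 (exact p = 0.000854, adjusted p = 0.00765) and 0.03 for Rny1 (exact p = 0.74, adjusted p = 0.841). Of the 197 misc_RNAs, 63 passed in either direction (32%), of which 15 had the larger share in EVs (7.61%). The median log2 ratio of shares in the class was -0.44. By this ratio Rny3 and Vaultrc5 held places 5 and 6 from the top, and Rny1 held place 50. The 0.5 counts added for these class values raise the share of a rare RNA more where a library holds fewer misc_RNA counts. Libraries held a median of 51280.5 misc_RNA counts in EVs and 33064.5 in plasma. Whether this moved the class values toward plasma was not tested. In the count model with TMM over misc_RNA alone, the median of the class was -0.03, with 18 calls toward EVs and 11 toward plasma. Over the 6 scalings that median ran from -0.59 to 0.11.

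The denominator of these shares was made mostly by the RNA of the signal recognition particle. The RNAs with the most counts were Rn7s1 and Rn7s2 with 21.9% of all misc_RNA counts each, with identical counts in every library, and Rn7s6 with 13.2%. Rny1 was the 12th of 565 symbols by counts with 0.821%, Vaultrc5 the 17th with 0.294% and Rny3 the 26th with 0.124%.

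**Figure D3:**
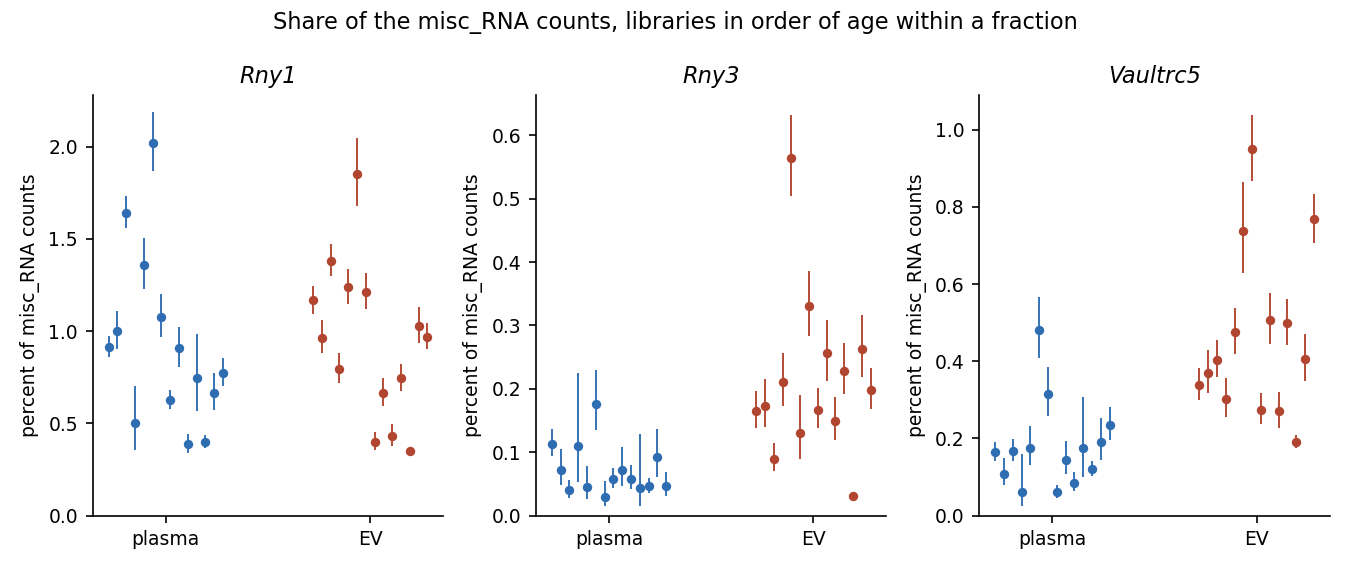
Percent of a library's misc_RNA counts that belong to each RNA, 1 point per library with its 95% Wilson interval, in order of age from left to right within a fraction. In EVs 7 libraries of Rny3 and 5 of Vaultrc5 lie above the highest plasma library, and those of Rny1 lie at the same heights in both fractions.

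Ratios between the members set Rny1 apart from the other pair within each library. The count ratio of Rny1 to Rny3 had a median of 3.85 in EVs (2.19 to 15.4) and of 12.1 in plasma (4.57 to 41.3). It was lower in EVs in 12 of 14 mice, by 1.42 ± 1.25 on the log2 scale (exact sign-change test, two-sided, p = 0.00146). Vaultrc5 to Rny1 had a median of 0.471 in EVs (0.29 to 0.792) and of 0.2 in plasma (0.0976 to 0.305), and it was higher in EVs in 14 of 14 mice, by 1.42 ± 0.62 (exact p = 0.000122). The highest plasma ratio, in replicate 2 at 18 months, only just passed the lowest EV ratios, those of replicates 1 and 3 at 2 months. Vaultrc5 to Rny3 had medians of 2.09 in EVs and 2.35 in plasma, was higher in EVs in 8 of 14 mice and differed by -5.0e-05 ± 1.04 (exact p = 1). These p-values are for 3 ratios that share members and are not adjusted.

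**Figure D4:**
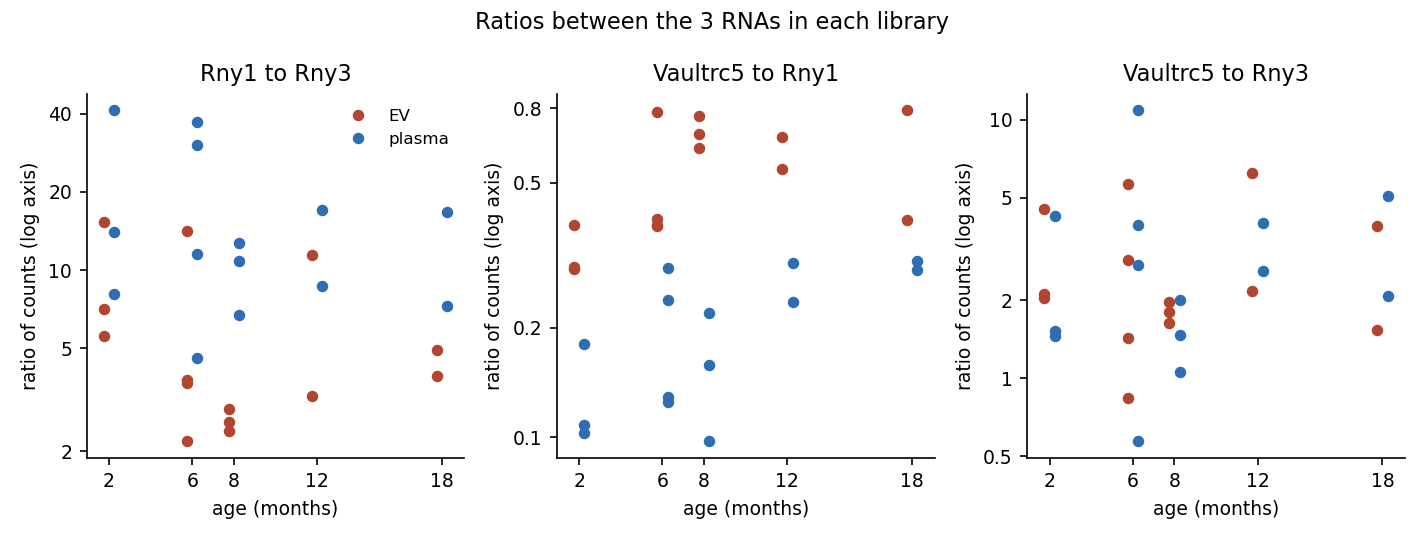
Ratio of counts between the RNAs of 1 library on a log axis, against the age of the mouse in months, with EV points drawn left and plasma points right of the age. The plasma points of Rny1 to Rny3 lie mostly above the EV points, those of Vaultrc5 to Rny1 mostly below, and those of Vaultrc5 to Rny3 among them.

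Age was the other axis of the design, and no member had a trend with age that passed the adjusted threshold in either fraction. The count model called 0 of 16547 RNAs in EVs (0%), 2 of 19282 in plasma (0.0104%) and 0 of 19919 for the difference of the trends (0%). At an unadjusted p under 0.05 it called 971 of 16547, 1372 of 19282 and 779 of 19919, with Rny1 in plasma as the only member among them. DESeq2 called 17, 29 and 6 after adjustment, none of them a member.

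Rny1 in plasma came closest. At 2 months its plasma levels were 111, 62.2 and 151 RPM. At 6 months they were 54.5, 64.6, 71.8 and 73.5 RPM, and at 8 months 67.7, 47.7 and 28.8. At 12 months they were 33.9 and 61.6 RPM, and at 18 months 40.1 and 55.6. The highest 2 libraries were thus from 2-month mice, and the means at 8, 12 and 18 months, 48.0 ± 19.5, 47.7 ± 19.6 and 47.8 ± 11 RPM, did not differ beyond their spread. Spearman's rho with age was -0.69 over 14 mice (two-sided permutation test, p = 0.0077, 0.842 adjusted over 19282 RNAs) and Pearson's r was -0.59 (p = 0.0263, adjusted p = 0.741). With the 2 oldest mice, those at 18 months, left out as the ages most distant from the median, r was -0.68 (permutation p = 0.0129). This rho was the 21st lowest of 19282, among 1012 RNAs with an unadjusted p under 0.05 (5.25%). With counts scaled by TMM in place of RPM, rho was -0.51 (p = 0.0667), and as a share of all counts it was -0.80 (p = 0.0013), so the direction held and the unadjusted call was lost with TMM. The fitted slope was -0.088 log2 units per month with a standard error of 0.033 (edgeR unadjusted p = 0.0169, adjusted p = 0.648).

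The share of Rny1 among plasma misc_RNAs also had a negative correlation with age, with a rho of -0.60 (p = 0.0279, 0.515 adjusted over 184 misc_RNAs), the lowest rho of the class, in which 7.07% had an unadjusted p under 0.05. Pearson's r of this share was -0.44 (p = 0.111), so the call rests on ranks, and it was also lost without replicate 3 at 2 months (rho -0.53, p = 0.0632) or replicate 2 at 8 months (rho -0.56, p = 0.0501).

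In EVs the RPM levels of Rny1 were lowest in the middle of the age range. They were 88.0, 71.3 and 112 RPM at 2 months, 50.6, 50.4, 82.9 and 66.7 at 6 months, 28.5, 34.9 and 27.1 at 8 months, 66.7 and 72.3 at 12 months and 71.3 and 74.3 at 18 months. The 3 libraries of 8 months lay below all other EV libraries, and those of 12 and 18 months lay near the middle. Spearman's rho was -0.30 (p = 0.293, adjusted p = 1), r was -0.15 (p = 0.603) and -0.46 without the 18-month mice (p = 0.131), and the fitted slope was -0.0077 log2 units per month (standard error 0.030, edgeR adjusted p = 0.988). The share of misc_RNA had a rho of -0.50 (p = 0.0696, adjusted p = 0.753), which was -0.73 without the 18-month mice (p = 0.00884).

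**Figure D5:**
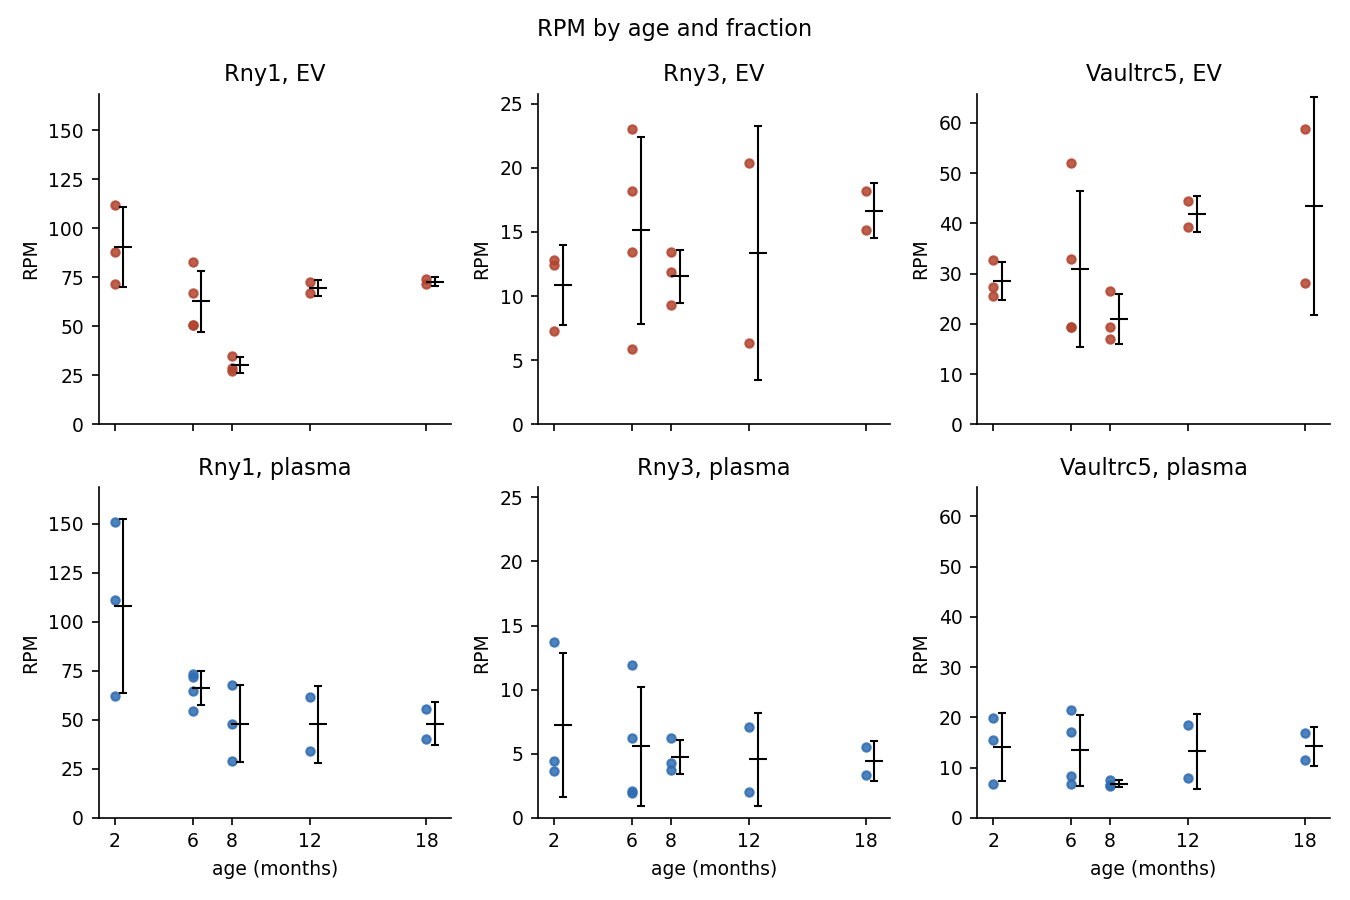
Level of each RNA in RPM against age in months, EVs in the upper row and plasma in the lower, 1 point per mouse, with the mean and SD of an age drawn to its right; both rows of an RNA share 1 scale. Rny1 in plasma is highest at 2 months with 108 ± 44.2 RPM, Rny1 in EVs is lowest at 8 months with 30.2 ± 4.13 RPM, and Rny3 and Vaultrc5 overlap between ages.

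Rny3 had no trend with age that passed a threshold. Its EV means were 10.9 ± 3.09 RPM at 2 months, 15.1 ± 7.32 at 6, 11.5 ± 2.08 at 8, 13.4 ± 9.91 at 12 and 16.7 ± 2.15 at 18 months, with no steady order. Its plasma means were lower at each older age, with 7.26 ± 5.60, 5.57 ± 4.67, 4.77 ± 1.31, 4.55 ± 3.62 and 4.43 ± 1.55 RPM at 2, 6, 8, 12 and 18 months, and neighbouring ages overlapped throughout in both fractions. Spearman's rho was 0.25 in EVs (p = 0.391, adjusted p = 1) and -0.16 in plasma (p = 0.579, adjusted p = 0.923), and r was 0.27 (p = 0.345) and -0.25 (p = 0.388), or 0.11 and -0.26 without the 18-month mice. The fitted slopes were 0.026 log2 units per month in EVs and -0.053 in plasma (edgeR, adjusted p = 0.979 and 0.863).

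In RPM, Vaultrc5 had its highest EV means at 12 and 18 months, without passing a threshold. Its EV levels were 25.5, 27.3 and 32.8 RPM at 2 months, 19.3, 19.4, 33.0 and 52.1 at 6 months, 19.5, 26.5 and 16.9 at 8 months, 44.5 and 39.4 at 12 months and 28.1 and 58.8 at 18 months. The 4 oldest mice thus overlapped with the 6-month mice. Spearman's rho was 0.31 (p = 0.278, adjusted p = 1), r was 0.43 (p = 0.119) and 0.26 without the 18-month mice (p = 0.418), and the slope was 0.053 log2 units per month (standard error 0.025, edgeR unadjusted p = 0.0514, adjusted p = 0.842). In plasma rho was -0.08 (p = 0.79, adjusted p = 0.963) and r 0.01 (p = 0.96), or -0.18 without the 18-month mice. The plasma means by age were 14.1 ± 6.73 RPM at 2 months, 13.4 ± 7.04 at 6, 6.81 ± 0.63 at 8, 13.3 ± 7.50 at 12 and 14.2 ± 3.83 at 18 months, and the 8-month libraries were the lowest as a group, though 2-month and 6-month libraries came as low. The high EV means of the oldest mice depended on the denominator. By share of misc_RNA the EV mean was highest at 6 months (0.616 ± 0.285%) and lowest at 12 months (0.345 ± 0.217%), with a rho of 0.08 (permutation p = 0.793). As a share of all counts, rho in EVs was 0.04 (permutation p = 0.905).

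Within libraries, the ratio of Vaultrc5 to Rny1 correlated with age in both fractions at an unadjusted p under 0.05. In EVs the ratio was 0.29, 0.383 and 0.293 at 2 months, 0.381, 0.384, 0.398 and 0.781 at 6, 0.682, 0.761 and 0.623 at 8, 0.667 and 0.544 at 12 and 0.394 and 0.792 at 18 months. The 3 libraries of 8 months thus lay above 1 of the 2 of 18 months, and the rise was not steady. In plasma it was 0.18, 0.108 and 0.103 at 2 months, 0.125, 0.129, 0.238 and 0.293 at 6, 0.0976, 0.158 and 0.219 at 8, 0.235 and 0.301 at 12 and 0.287 and 0.305 at 18 months. The lowest plasma ratio was at 8 months, and both libraries of 18 months lay above all 3 of 2 months. Spearman's rho was 0.65 in EVs (permutation p = 0.0136) and 0.62 in plasma (p = 0.0212), and r was 0.50 (p = 0.0677) and 0.67 (p = 0.00916). Without the 18-month mice rho was 0.69 in EVs (p = 0.0163) and 0.47 in plasma (p = 0.126), so in plasma the direction held and the unadjusted call was lost. This call was also lost in plasma without replicate 2 at 12 months (rho 0.55, p = 0.0554) or replicate 2 at 18 months (rho 0.53, p = 0.0612). Both fractions come from the same mice, 6 relations of this kind were computed, and no p is adjusted. The other ratios had rho of -0.28 and -0.21 for Rny1 to Rny3 in EVs and plasma and of -0.0090 and 0.13 for Vaultrc5 to Rny3, with unadjusted p between 0.326 and 0.978.

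Whether age acts differently in the fractions was tested by the product of age and fraction. The slope in EVs exceeded that in plasma by 0.078 log2 units per month for Rny1 (standard error 0.046), 0.077 for Rny3 (0.056) and 0.061 for Vaultrc5 (0.046), with unadjusted p of 0.0976, 0.174 and 0.19 and an adjusted p of 1 for each (edgeR). This fit did not use the pairing of fractions by mouse. With a block by mouse, 0 of 19919 RNAs passed the adjusted threshold. As a description in RPM, Rny1 was higher in EVs than in plasma in all 4 mice of 12 and 18 months, with log2 ratios of 0.23 to 0.98, and in 2 of the 10 younger mice, with log2 ratios of -1.25 to 0.21. This split depended on the denominator. By share of misc_RNA, Rny1 was higher in EVs in 2 of the 4 older and 4 of the 10 younger mice, and by share of all counts in 3 of the 4 and 3 of the 10. In RPM, the ratios of Vaultrc5 were above 0 at all ages, with medians of 1.54 in the older and 1.35 in the younger mice.

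The other structural RNAs of RNA polymerase III in the list were the 7SL genes Rn7s1, Rn7s2 and Rn7s6 of the signal recognition particle, Rn7sk, which holds back the elongation factor P-TEFb, Rmrp of RNase MRP and the neuronal Bc1. Of the 9 symbols of the list, values were taken for these 6 only, and none for Rpph1, Rnu6 and Rnu6atac. In EVs against plasma 2 of these passed the threshold, both with the higher level in EVs. The median log2 difference of the 6 was 0.58, beside -0.02 over all RNAs. That median is the value of Rn7s1 and Rn7s2, whose identical counts enter the 6 as 1 measurement under 2 symbols. Rmrp had 26.4 ± 28.5 RPM in EVs and 5.34 ± 4.18 in plasma, was higher in EVs in 13 of 14 mice and had a log2 difference of 2.63 (standard error 0.48, edgeR adjusted p = 0.000212). Rn7sk had 35.8 ± 38.2 and 17.6 ± 13.2 RPM, was higher in EVs in 13 of 14 mice and had a log2 difference of 1.41 (standard error 0.38, adjusted p = 0.00844). Rn7s1 and Rn7s2 had 1685 ± 845 RPM in EVs and 1698 ± 814 in plasma. They were higher in EVs in 7 of 14 mice and had a log2 difference of 0.58 (adjusted p = 0.3). Rn7s6 had 945 ± 605 and 1105 ± 552 RPM, was higher in EVs in 4 of 14 mice and had a log2 difference of 0.35 (adjusted p = 0.58). Bc1 had one of -0.36 (adjusted p = 0.279). None of these RNAs passed the threshold for age in EVs, age in plasma or their difference (0 of 6 each).

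How the members moved among themselves over mice was described within each fraction, over 14 libraries that share depth and scaling between the RNAs. Pearson's r of log2(RPM + 1) between Vaultrc5 and Rny1 was 0.60 in EVs and 0.56 in plasma. It was -0.16 and 0.23 between the Y RNAs, whose genes are neighbours, and 0.04 and 0.08 between Vaultrc5 and Rny3.

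The RNAs most like each member over the 28 libraries, by Pearson's r of log2(RPM + 1), were of several classes. For Rny1 they were piR-1889, annotated as a piRNA, with 0.97, the sequence relative Gm26168 with 0.83 and oocyte_piRNA2453, annotated as a piRNA, with 0.83. The count of piR-1889 was 0.529 to 0.753 times that of Rny1 in every library, with medians of 0.613 in EVs and 0.646 in plasma, while 8546 counts of it were listed in all. Whether the same reads were counted for piR-1889 and Rny1 was not tested, so the likeness may not be that of separate RNAs. For Rny3 they were Gm24601, annotated as an rRNA, with 0.75, the lncRNA Gm28723 with 0.74 and a circRNA with 0.73, which the table lists at chr17:57220517-57226970 on the plus strand and which overlaps exons of C3, a complement gene on the minus strand. For Vaultrc5 they were a circRNA at chr13:83809081-83809983, inside the lincRNA gene C130071C03Rik but not at its annotated exons, with 0.84, the miRNA miR-574-3p with 0.83 and Mir1839, listed as a scaRNA, with 0.83. The 28 points share the fractions, the mice and the RPM number of their library, and no test was made.

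miRNAs of blood cells and tissues were summed as a view of other sources. The 4 red cell miRNAs, led by miR-451a, summed to 490 to 4128 RPM in EVs and 645 to 2980 in plasma, and the 4 of platelets and leukocytes to 151 to 819 and 117 to 431. The 3 of liver summed to 19.2 to 243 RPM in EVs and 14.6 to 177 in plasma, and the 3 of skeletal muscle to 0.489 to 8.08 and 0.757 to 8.01. All were measured in both fractions, with libraries at 0 only for the muscle miRNAs miR-133a-3p and miR-206-3p, in 1 to 3 of a fraction. The sums were higher in EVs in 9, 11, 10 and 9 of 14 mice, beside 14 for Vaultrc5, 11 for Rny3 and 6 for Rny1. The part of the sums in these results was not tested. By median RPM, miR-142a-3p was higher in EVs (110.5 against 56.2 in plasma). The other miRNAs of platelets and leukocytes were lower, miR-223-3p (53.5 against 56.1), miR-126a-3p (36.1 against 41.9) and miR-150-5p (42.7 against 54.96). Of red cells, miR-486a-5p (46.4 against 76.6) and miR-451a were lower, and miR-144-3p and miR-144-5p higher. All of liver were higher, and of muscle only miR-206-3p was lower. Spearman's rho of these sums with age ranged from 0.07 to 0.44 in EVs and from -0.05 to 0.26 in plasma.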

How the data were processed

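Y RNAs and vault RNA were measured by small RNA sequencing of EVs and EV-depleted plasma, 14 libraries per fraction. The authors deposited a raw table of estimated counts and a second table, a signal in RPM, in which every count was divided by 1 number for its library. This number differs from the total count, and its meaning is not stated. The submitters' processing notes list mm10 and R 4.0.4. The study's methods name Bowtie with miRBase, GtRNAdb, RNACentral and Ensembl sequences for small RNA reads, but do not state whether that covers the plasma and EV libraries. Groups and mice come from the labels, and EV and plasma libraries pair because they come from the same animal. As a check, deviations from the age means over all RNAs tested were correlated between both fractions of a mouse. At ages with more than 2 mice, r was -0.062 to 0.272. Of the 10 EV libraries at these ages, 7 were closest to plasma of their own mouse. At 12 and 18 months, with 2 mice each, deviations mirror each other. Both mice of such an age thus share 1 r, 0.345 and 0.139, and are not separate checks of the pairing.

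Counts of 1 symbol were summed, rounded, and tested in edgeR 4.0.16 (limma 3.58.1, R 4.3.3) by glmQLFit and glmQLFTest with TMM over all RNAs with at least 1 RPM in over 10% of either fraction's libraries, with Benjamini-Hochberg adjustment over all RNAs tested and a threshold of 0.05. Age in months was linear. Correlations used permutation tests with 100000 resamples, shares and ratios exact sign changes within mice, in Python 3.11.15 (scipy 1.17.1, numpy 2.4.6, pandas 2.3.3, with matplotlib 3.10.9 for plots). Log2 ratios between members had 0.5 counts added. For EVs against plasma, shares had 0.5 counts added for the adjusted p, the class median and the places. The log2 ratios of shares and the exact p of the members had none added. Wilson and Poisson intervals were at 95% and cover counting error only. Folds were predicted with RNAfold 2.7.2. The tests were tested on simulated data. Alternatives were DESeq2 1.42.0, other scalings, filters, denominators and codings of age, a block by mouse, and leaving out mice or shallow libraries. With 3 to 1323 counts of a member per library, depth limits Rny3 in plasma most.

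Named in the text were the 3 members, the 3 RNAs most like each, a list of 9 other structural RNAs, the 3 most abundant misc_RNAs and marker miRNAs. Members and lists were chosen with earlier results of these data known. Of the Ensembl rows, 97.0% matched a GENCODE M21 sequence.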

Additional observations from a re-analysis of the deposited data

Results flagged for a closer look

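One value stood apart from its group of 4 by Dixon's test at the 95% level, among 18 groups of 6-month libraries tested, of which chance alone marks about 1 in 20. The log2 ratio of Vaultrc5 to Rny1 in EVs of replicate 4 at 6 months was -0.36, a count ratio of 0.781, while the other 6-month EV libraries had count ratios of 0.381, 0.384 and 0.398. In plasma of the same mouse the ratio was 0.293, the highest of the 6-month plasma libraries, which had 0.125, 0.129 and 0.238 in the other mice.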

How the results depend on the processing

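The differences of Rny3 and Vaultrc5 between EVs and plasma kept their direction and stayed past the threshold under each of 12 alternatives and without any 1 mouse, with log2 differences of 1.72 to 2.04 for Rny3 and 1.73 to 1.92 for Vaultrc5 over the mice left out. With the replicate block by mouse they were 1.89 (adjusted p = 7.23e-05) and 1.90 (adjusted p = 4.51e-07), and Rny1 had 0.51 (adjusted p = 0.0698), so the paired fit changed no call. With the block and the RPM number together, added after seeing the data, Rny1 had -0.02, Rny3 1.36 and Vaultrc5 1.40. The count of all RNAs past the threshold was 3461, and 2302 with the total count, 5993 with TMM over miRNAs alone and 7420 with the block and the RPM number.

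For age, rho of Rny1 in plasma was -0.51 with counts scaled by TMM. The share of Rny1 in EVs passed an unadjusted 0.05 without the 18-month mice (-0.73), with Rn7sk, Rn7s1 and Rn7s2 left out of the class (-0.62) and with all 7SL-like RNAs and Rn7sk left out (-0.55, added after seeing the data), and lay between -0.60 and -0.42 with 1 mouse left out, passing without replicate 2 at 2 months or either 18-month mouse. In plasma it was -0.44 by Pearson's r, added after seeing the data, and -0.69 to -0.53 with 1 mouse left out. The ratio of Vaultrc5 to Rny1 in plasma was 0.47 without the 18-month mice and 0.53 to 0.75 with 1 mouse left out. The cause of these changes was not tested. The numbers of RNAs with an age trend were small under most settings: in EVs 0, and 17 with DESeq2, 1 with the total count or TMM over miRNAs or misc_RNA alone, and 3 with no filter. In plasma they were 2, and 29 with DESeq2, 25 with no filter, 73 without the 18-month mice, 6 with the RPM number, 5 and 4 with TMM over miRNAs or misc_RNA alone, 0 with a filter of 5 RPM, log2 of age, oldest against youngest or no shallow library, and 0 to 18 with 1 mouse left out. For the interaction they were 0, 6 with DESeq2 and up to 3 with 1 mouse left out. Depth limits Rny3 in plasma, where 3 libraries held fewer than 10 counts.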
